A study of Mus musculus with 30 samples.

Results

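The responses of fetal liver and fetal lung to perfluorooctane sulfonate (PFOS), a persistent fluorinated surfactant, were set against each other at the lower dose of the study, 5 mg/kg/day. The comparison used 20 of the 30 arrays: 5 of liver and 5 of lung from unexposed litters, and 5 of each tissue from litters exposed at 5 mg/kg/day. The animals were CD-1 mice, an outbred stock. Dams received the potassium salt of PFOS by gavage from gestation day 1 to 17 in 0.5% Tween 20, unexposed dams were the 0 mg/kg/day group, and fetal tissues were taken on gestation day 18. Each array held RNA pooled from 3 fetuses of 1 litter, kept where the RNA integrity number reached 8. The labels do not say whether the liver and lung arrays that share a litter number came from the same litter. For each gene the change in lung (5 minus 0 mg/kg/day) was subtracted from the change in liver, so that a positive difference means a response that ran higher in liver. Values are log2 levels, on which a change of 1 is a 2-fold difference.

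PFOS is known as an activator of the nuclear receptor PPAR alpha, which binds fatty acids and switches on genes for their uptake, activation and oxidation in peroxisomes and mitochondria. Liver is the tissue where that programme is best known, and PFOS is also known to act on the xenobiotic receptors CAR and PXR. Fetal lung near term makes surfactant, whose lipids also depend on fatty acid supply, and it expresses many of the same enzymes.

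The arrays matched their tissue labels. The 17 measured of 20 hepatocyte markers averaged 12.5 to 12.6 on the 10 liver arrays, and the 13 measured of 14 lung epithelial markers averaged 10.3 to 10.6 on the 10 lung arrays, against 5.24 to 5.69 in liver. Several libraries stood apart. Lung litter 1 at 0 and at 5 mg/kg/day was highest in hepatocyte markers, at 9.19 and 9.50, where the other 8 lung arrays lay between 7.44 and 8.68. The litters labelled 1 were also low in Xist, the RNA that silences an X chromosome in female cells, at 4.80 to 5.82 in liver and 5.38 to 5.56 in lung, against 8.23 to 10.28 and 9.04 to 11.05 in the other litters. Liver control litters 2, 3 and 5 carried the gastric protease transcript Cym at 11.27, 9.50 and 8.20, where the other liver controls were at 5.05 and 5.28. The counts over all genes are given with and without these libraries, and a list's count is given without them where it moved by over 1.5 times.

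At 5 mg/kg/day the liver response already differed from the lung response in 254 genes that both tissues expressed, and 244 of these were called in liver. The liver change is part of the difference, so that this overlap is partly built in. Of the 12310 genes above the detection filter in both tissues, 194 had the higher response in liver (1.58%) and 60 the lower (0.487%), or 2.06% in all, by limma's test of the difference at an adjusted p under 0.05. In liver itself 617 of these genes rose (5.01%) and 300 fell (2.44%), or 7.45%. In lung 4 rose (0.0325%) and none fell by limma (0%), with 301 higher and 177 lower at an unadjusted p under 0.05. Of the 254 genes, 0 were called in lung and 10 in neither tissue. For 174 of the 194 genes with a higher liver response, the 95% interval of the lung change included 0. Of the 194, 9 were higher and 11 lower in lung at an unadjusted p under 0.05, against 301 and 177 of all 12310. The lung change is part of the difference that chose these genes, so their lung values are no separate evidence of an unchanged lung. In bulk tissue, fewer cells of a type and less RNA per cell cannot be told apart.

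A call in liver was not by itself a difference between the tissues. Of the 917 genes called in liver, 244 passed the test of the difference and 673 did not. The last gene inside the threshold was Bcl9 (adjusted p 0.0498) and the first outside was Ctif (0.0502). The count fell to 157 (135 higher, 22 lower) without the 3 liver control litters high in Cym, and 137 of those were among the 254. It fell to 144 (107 higher, 37 lower) without the litters labelled 1 at both doses in both tissues, with 130 shared, and to 201 without lung litter 1 alone, with 178 shared. In each of these 3 fits all 254 genes kept the sign of their difference. Over all 13856 genes tested, 285 were called (2.06%), and these were 175 and 170 in the first and second of those fits.

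**Figure D1:**
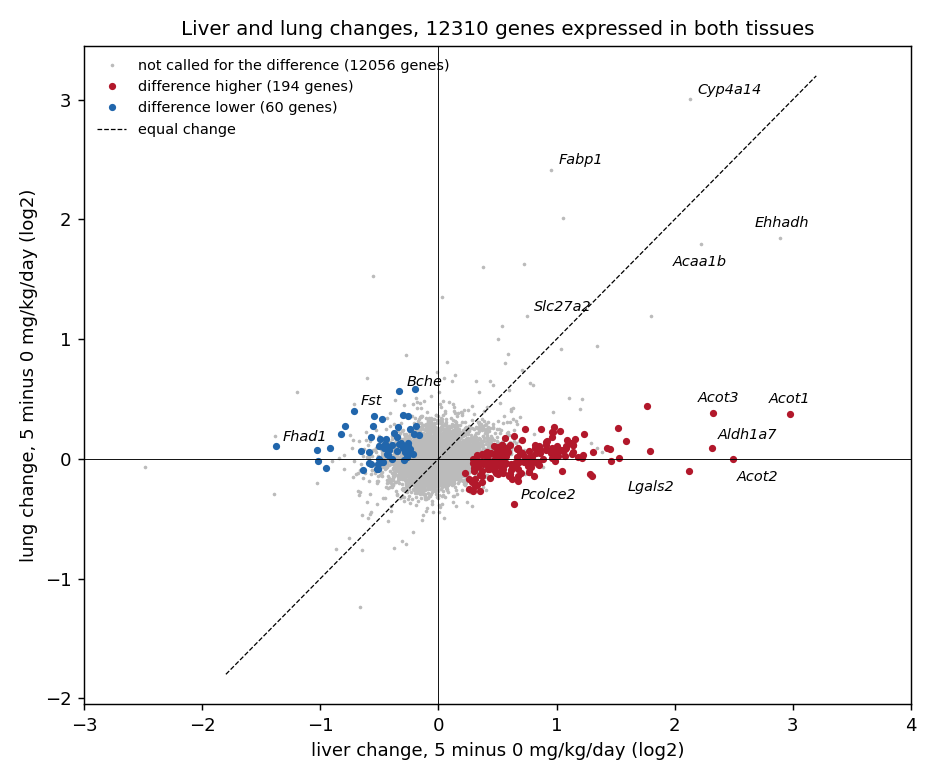
Change in liver (horizontal axis, log2, 5 minus 0 mg/kg/day) against change in lung (vertical axis) for 12310 genes expressed in both tissues, each the difference of means of 5 litters per group, with genes called for the difference in colour. The 194 red and 60 blue genes extend mostly along the horizontal axis, with blue genes such as Bche and Fst above it, while Cyp4a14, Fabp1, Ehhadh and Acaa1b lie high on the lung axis.

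The largest differences among genes expressed in both tissues were those of Acot1 and Acot2, acyl-CoA thioesterases, which split fatty acyl-CoA into free fatty acid and CoA. Acot1, the cytosolic form, was at 6.90, 6.95, 7.29, 7.68 and 7.86 in control liver and at 10.43, 10.58, 10.48, 9.98 and 10.10 in exposed liver. In lung it was at 7.68, 8.06, 7.96, 8.26 and 8.37 without PFOS and at 8.51, 8.37, 8.58, 8.43 and 8.31 with it. The liver groups were far apart and the lung groups overlapped, although Acot1 was at least as bright in control lung as in control liver. Acot1 rose by 2.98 in liver, with a lung change of 0.38 (95% interval 0.06 to 0.69, adjusted p = 1.00), a difference of 2.60 (SE 0.22, limma adjusted p = 1.28e-08).

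Acot2, the mitochondrial form, was at 6.21, 6.45, 6.12, 6.25 and 6.33 in control liver and at 9.10, 9.02, 9.05, 8.32 and 8.34 in exposed liver. Its lung litters ranged from 7.41 to 7.91 without PFOS and from 7.44 to 7.74 with it. Acot2 thus began lower in liver than in lung and ended above it, with a liver change of 2.50, a lung change of 0.00 (-0.30 to 0.30) and a difference of 2.50 (SE 0.21, limma adjusted p = 1.28e-08). The peroxisomal forms went the same way in liver. Acot3 rose from 7.34 to 9.67 in liver and stood at 4.47 and 4.86 in lung, a difference of 1.94 (limma adjusted p = 1.28e-08). Acot4, which passed the filter in liver only, differed by 1.90. Acot1 to Acot4 are neighbouring genes of similar sequence, so that a probe set of one may also measure another. Of 11 thioesterase genes expressed in both tissues, 4 were called higher and none lower, against 1.58% and 0.487% of all genes expressed in both tissues.

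As context for the gene with the largest difference, the 250 bases before the annotated start of Acot1 were read from RefSeq (GRCm38.p6, chr12:84009252-84009501, plus strand). They were searched on both strands for AGGNCA followed, after 1 base of any kind, by AGGNCA again, a direct repeat of the kind that PPAR alpha binds with its partner RXR.

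Acot1: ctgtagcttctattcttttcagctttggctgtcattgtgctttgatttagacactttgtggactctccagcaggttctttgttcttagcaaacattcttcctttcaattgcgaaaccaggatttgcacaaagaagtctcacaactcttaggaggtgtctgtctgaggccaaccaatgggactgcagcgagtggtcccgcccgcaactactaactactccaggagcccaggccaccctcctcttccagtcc

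No match stood in this window, so nothing is in capitals. The motif was in 33 of 9940 matched genes expressed in both tissues (0.332%) and in 108 of all 27025 genes with a promoter (0.4%). It was in 0 of the 161 matched genes with the higher liver response, in 1 of the 48 with the lower (2.08%) and in 1 of the 3 matched genes that rose in lung (33.3%). These counts describe the letters of a short window only.

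Some of the genes with a liver response were at least as abundant in lung, but genes with such levels were called less often. Of the 6115 genes whose control level was at or above that of liver in lung, 74 had a higher and 21 a lower liver response, 1.55% together, against 2.06% over all genes expressed in both tissues. Levels of different tissues rest on one scale only if all arrays were normalized together, which is not given in the sources used here. Aldh1a7, an aldehyde dehydrogenase, was at 5.77 to 7.49 in control liver (median 6.24) and 8.27 to 9.39 in exposed liver, and between 9.31 and 9.70 in all 10 lung litters. Its liver groups did not overlap and its lung groups did. The change was 2.32 in liver and 0.09 in lung, a difference of 2.23 (SE 0.32, limma adjusted p = 8.01e-05).

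Pltp, which transfers phospholipids between lipoproteins, was at 8.22, 8.68, 8.64, 8.21 and 8.33 in control liver and at 10.21, 10.17, 9.40, 9.04 and 9.68 in exposed liver. In lung it ran from 10.62 to 10.78 without PFOS and from 10.28 to 10.94 with it. The exposed lung litters spread around the controls, and the difference was 1.41 (SE 0.24, limma adjusted p = 5.38e-04). Vldlr, the very low density lipoprotein receptor, rose from 6.66 to 7.62 in liver and stood at 9.91 and 9.98 in lung. Its difference of 0.90 (limma adjusted p = 0.0183) stood beside differences of 0.20 to 1.18 by its other probe sets. The call of Vldlr held in 19 of the 20 settings beside leaving out 1 litter. Gadd45b, a stress-response gene and known CAR target, rose by 1.16 in liver from 6.81 and had a lung change of 0.16 from 8.12. Me1, the malic enzyme that supplies NADPH, began near the same level in both tissues, 7.23 and 7.28, and rose by 1.31 in liver, with a difference of 1.25 (limma adjusted p = 2.68e-04).

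**Figure D2:**
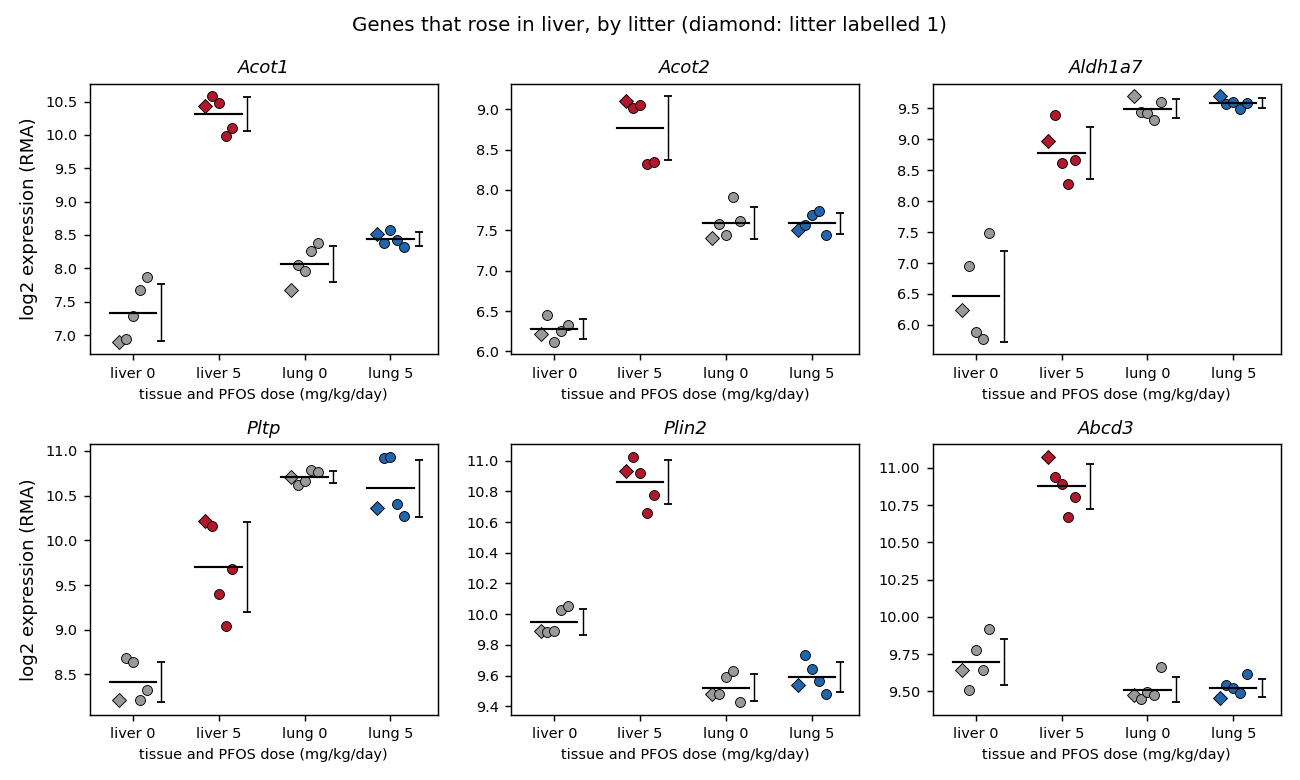
Log2 levels (vertical axes) of 6 genes in each litter of the 4 groups (horizontal axes, tissue and dose in mg/kg/day), with the group mean as a line and the SD as a bar, and the litter labelled 1 as a diamond. In each panel the exposed liver litters lie above the liver controls, and the exposed lung litters overlap the lung controls.

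Several genes that handle lipid droplets rose in liver at this dose. Plin2, the main droplet coat protein of liver, was at 9.89, 9.88, 9.89, 10.03 and 10.05 in control liver and at 10.94, 11.03, 10.92, 10.66 and 10.78 in exposed liver. In lung it ran from 9.43 to 9.63 without PFOS and from 9.48 to 9.74 with it. Plin2 began at close levels in both tissues and moved apart by 0.84 (SE 0.11, limma adjusted p = 1.22e-05). G0s2 and Hilpda, both inhibitors of the lipase that opens droplets, rose by 1.53 and 1.22 in liver, with lung changes of 0.01 and 0.01. Of 12 droplet and lipase genes, 5 rose in liver, 4 were called higher and none lower. Over all genes expressed in both tissues, 5.01% rose in liver, 1.58% were called higher and 0.487% lower. The list's median difference was 0.16, against -0.01 over all genes expressed in both tissues.

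Oxidation genes of mitochondria and peroxisomes were called in liver in large part, and in lung only where a few members rose steeply. Of 18 mitochondrial beta-oxidation genes, 14 rose in liver, none was called in lung, and 9 had a higher liver response. Over all genes expressed in both tissues, 5.01% rose in liver and 1.58% had a higher liver response. Decr1, which prepares unsaturated fatty acids, was at 10.15 to 10.24 in control liver, 10.89 to 11.15 in exposed liver, 8.33 to 8.46 in control lung and 8.36 to 8.60 in exposed lung. The liver groups of Decr1 were separate and the lung groups overlapped, and the difference was 0.74 (limma adjusted p = 5.36e-06). Eci1 and Etfdh, an isomerase and an electron carrier of the same pathway, differed by 1.02 and 0.72. Among 7 carnitine shuttle genes, 4 were called higher, among them Cpt2 (0.95), Slc25a20 (0.77) and Crot (0.99), and 2 were without the controls high in Cym. Cpt1a, the gate of the shuttle, stood at 9.31 and 9.35 in liver and at 7.95 and 8.07 in lung and was not called. A second, dim probe set of Crot gave -0.27.

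In peroxisomes 6 of 26 oxidation genes were called higher, while 13 rose in liver and 2 in lung. The shares to set beside each list here are those over all genes expressed in both tissues. They were 1.58% called higher, 5.01% risen in liver and 0.0325% risen in lung. The lists overlap: Acot2 is among the 9 mitochondrial genes, and Acot3 and Crot are among these 6. Each is counted again among the thioesterases or the carnitine shuttle genes. Abcd3, a transporter of the peroxisomal membrane, was at 9.64, 9.51, 9.78, 9.64 and 9.92 in control liver and at 11.08, 10.94, 10.89, 10.67 and 10.80 in exposed liver. All 10 lung litters lay between 9.45 and 9.66. The difference was 1.17 (SE 0.10, limma adjusted p = 1.28e-08). Pex11a, which drives peroxisome division, differed by 0.99, and Pxmp4 and Pex19 by 0.78 and 0.47, so that 4 of 18 peroxisome biogenesis genes were called. Acsl4 and Acsl5, which activate fatty acids to acyl-CoA, differed by 0.85 and 0.53 and were among 4 of 19 called genes of uptake and activation. Without the litters labelled 1 in both tissues, 2 of the 18 and 2 of the 19 were called, and 2 of the 18 also without lung litter 1 or without the controls high in Cym. Pdk4, which turns off pyruvate use, rose by 1.77 in liver, with a lung change of 0.45 (0.08 to 0.81, adjusted p = 1.00), a difference of 1.32.

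Sterol and fatty acid synthesis also divided the tissues. Of 20 genes of cholesterol synthesis and uptake, 15 rose in liver, none was called in lung and 8 had the higher liver response. The shares over all genes expressed in both tissues were 5.01% risen in liver and 1.58% with the higher response. The list's median difference was 0.53. Without the litters labelled 1 in both tissues, 12 rose in liver and 4 had the higher response. Lss, the cyclase that makes lanosterol, was at 9.34, 9.26, 9.30, 8.97 and 9.34 in control liver and at 10.18, 10.36, 9.98, 10.15 and 10.10 in exposed liver. In lung it ran from 5.56 to 5.86 without PFOS and from 5.52 to 6.01 with it. The liver litters did not overlap and the lung litters did, with changes of 0.91 and 0.14 and a difference of 0.77 (limma adjusted p = 0.00337). Hsd17b7, Cyp51 and Pmvk, enzymes of the same pathway, differed by 0.92, 0.79 and 0.76. The list stood at a median of 9.14 in control liver and 6.60 in control lung.

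Of 23 genes of fatty acid and triglyceride synthesis, 13 rose in liver, none was called in lung, and 5 were called higher. Over all genes expressed in both tissues, 5.01% rose in liver and 1.58% were called higher. The 5 became 3 without lung litter 1 and 1 without the litters labelled 1 in both tissues. Gpam, which starts glycerolipid synthesis, was equally bright in both tissues, at 10.25 to 10.45 in control liver and 10.17 to 10.45 in control lung. It was at 10.70 to 11.20 in exposed liver and 9.79 to 10.26 in exposed lung, so that the liver groups were separate and the lung groups overlapped. Its difference was 0.81 (limma adjusted p = 3.16e-04). Acacb, which makes the malonyl-CoA that restrains the carnitine shuttle, differed by 1.02, though a second, dim probe set gave -0.10.

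**Figure D3:**
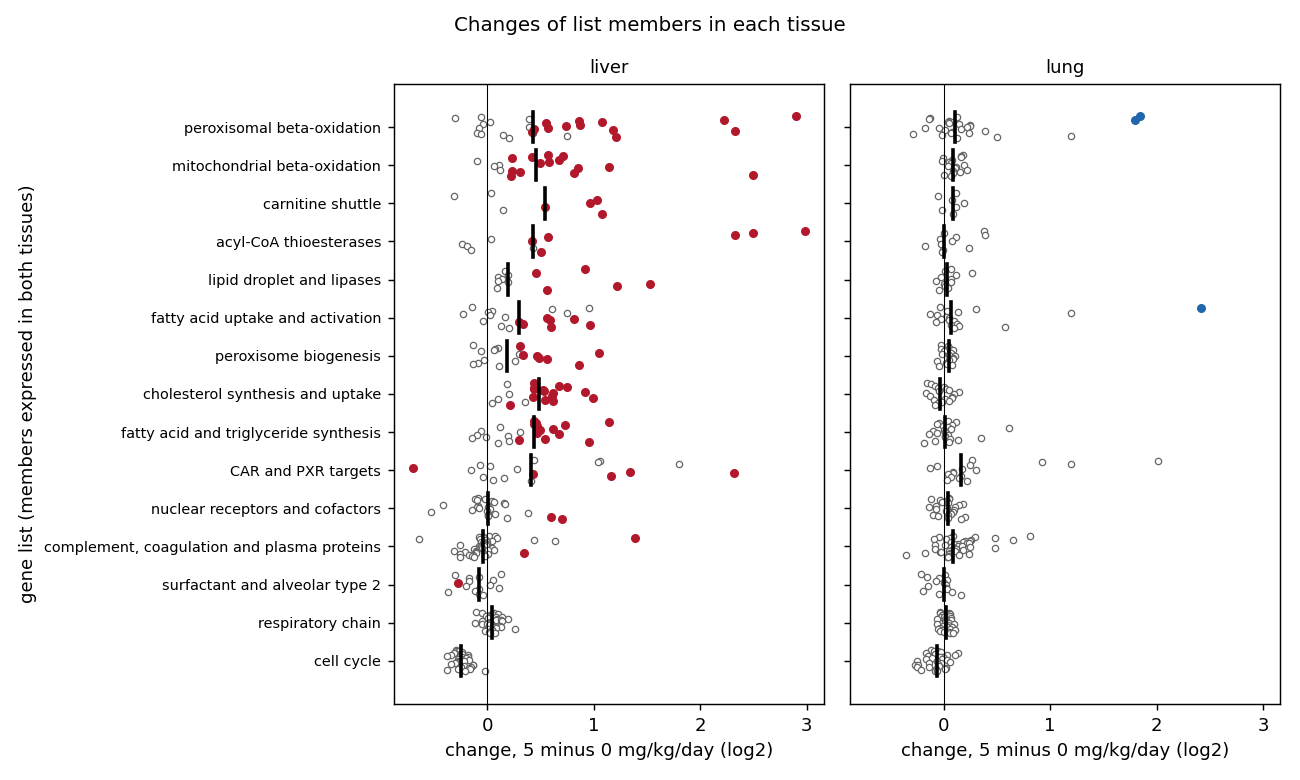
Change from 0 to 5 mg/kg/day (horizontal axes, log2) of each member expressed in both tissues, for 15 gene lists (rows), in liver and in lung. Filled points were called in that tissue, open points were not, and black bars are list medians. Filled points are spread over the lipid lists in liver, and in lung they are Ehhadh, Acaa1b and Fabp1.

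Xenobiotic genes gave a mixed picture. Of 17 CAR and PXR targets expressed in both tissues, 3 were called higher, against 1.58% overall: Aldh1a7, Gadd45b and Alas1 (0.39), the first enzyme of heme synthesis. Cyp2b10, a marker of CAR activity, had changes of 0.44 in liver and 0.26 in lung by the probe set used and was not called in either. Its 2 other, dim probe sets, at 2.72 and 3.52 in control liver, gave liver changes of 1.38 and 1.65 and differences of 1.06 and 1.27. Ephx1, the microsomal epoxide hydrolase, rose by 1.23 in liver, a difference of 1.03 (limma adjusted p = 0.00110). Of 25 nuclear receptors and cofactors, 0 were called for the difference by limma, where 2.06% of all genes were called, a share too low for 25 genes to be read against. In liver 2 of the 25 rose, Creb3l3 (0.70) and Nr1d2 (0.60), and 1 did so without the controls high in Cym. Nr1i2, which encodes PXR and passed the filter in liver only, rose by 0.67 there, with a difference of 0.56 that was not called. These 3 were named after their values were seen. Ppara was at 10.39 ± 0.08 (SD, n = 5) in control liver and 6.20 ± 0.13 in control lung, and its changes were -0.08 and 0.05.

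Among the other large liver responses, Lgals2, a galectin, was at 5.06 to 5.71 in control liver and 6.58 to 7.75 in exposed liver. In lung Lgals2 was between 3.88 and 4.54, mostly under the 40th percentile of the lung arrays, 4.16 to 4.21. Its difference was 2.22 (limma adjusted p = 4.56e-06), against 0.75 by a second probe set. Aqp3, a channel for water and glycerol, was at 4.98 to 5.32 and then 6.85 to 7.19 in liver, with a difference of 1.72, and 3 other probe sets gave 0.15, 1.69 and 2.78. Lepr, the leptin receptor, differed by 1.48, and its other probe sets gave -0.09, 1.06 and 1.63. Rnf186, a ubiquitin ligase, and Retsat, the retinol saturase, differed by 1.34 and 1.45.

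The tissues shared a steep rise in 3 genes for which no difference was called. Cyp4a14, a fatty acid omega-hydroxylase, was at 3.08, 3.54, 3.61, 4.18 and 4.83 in control lung and at 6.92, 6.88, 6.92, 6.33 and 7.24 in exposed lung. In liver it was at 9.55, 9.18, 10.37, 9.72 and 10.63 without PFOS and at 12.19, 12.11, 12.04, 11.80 and 11.97 with it. Neither tissue's groups overlapped. Cyp4a14 rose by 3.01 in lung (2.41 to 3.60, limma adjusted p = 7.26e-07) and 2.13 in liver, a difference of -0.87 (95% interval -1.72 to -0.03, adjusted p = 0.402). Cyp4a14 lay above the 40th percentile of the filter on 2 of 5 control lung arrays and on all 5 exposed ones, so that its lung rise and its difference are measured from a level partly under that filter.

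Ehhadh, the bifunctional enzyme of peroxisomal beta-oxidation, was at 5.03, 4.46, 4.68, 4.99 and 4.83 in control lung and from 5.94 to 7.08 (median 6.66) in exposed lung. In liver it ran from 9.10 to 9.82 without PFOS and from 11.87 to 12.51 with it. Both tissues separated by group, with a rise of 1.85 in lung (limma adjusted p = 2.26e-05) and 2.90 in liver. The difference of 1.05 had an interval of 0.42 to 1.68 but an adjusted p of 0.0773. Acaa1b, a peroxisomal thiolase with a closely similar paralog, was at 5.52, 4.89, 4.38, 4.89 and 4.45 in control lung and at 7.49, 6.51, 6.59, 5.57 and 6.95 in exposed lung. Those groups did not overlap, and Acaa1b rose by 1.79 in lung (limma adjusted p = 0.00131) and 2.23 in liver, a difference of 0.43 (-0.34 to 1.21).

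Fabp1, the liver fatty acid binding protein, was the fourth gene called in lung. It was at 8.04, 5.94, 5.48, 7.23 and 6.83 in control lung and at 9.76, 9.23, 8.93, 8.07 and 9.62 in exposed lung. In liver it was at 12.15 to 12.61 and 13.13 to 13.34. The lowest exposed lung litter stood just above the highest control, and the lung rise was 2.42 (limma adjusted p = 0.00541). The liver change of Fabp1 was 0.95 (limma adjusted p = 0.161), and the difference of -1.46 (-2.62 to -0.31) was not called (limma adjusted p = 0.242). The liver groups of Fabp1 did not overlap. The fit took 1 spread per gene over both tissues, and the SDs of Fabp1 were 0.18 and 0.08 in liver against 1.02 and 0.67 in lung. Its liver change was thus tested against a spread set mostly by lung. The 250 bases before its start (GRCm38.p6, chr6:71199629-71199878, plus strand, from RefSeq) are shown because they hold a match to the motif given for Acot1, in capitals, on the minus strand.

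Fabp1: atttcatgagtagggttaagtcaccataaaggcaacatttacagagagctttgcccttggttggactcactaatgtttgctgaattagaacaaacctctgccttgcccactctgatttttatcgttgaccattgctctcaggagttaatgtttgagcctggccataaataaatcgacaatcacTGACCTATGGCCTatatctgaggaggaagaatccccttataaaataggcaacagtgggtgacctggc

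Hepatocyte transcripts were present in the lung RNA and belong beside these values. At least 16 of the 17 measured markers lay above the 40th percentile on every lung array, their mean ran from 7.44 to 9.19 in the control litters and from 7.95 to 9.50 in the exposed litters, and Alb was at 12.25 in control lung. Their lung changes had a median of 0.13 and ran from -0.17 to 0.81, 13 of 17 were above 0, and 0 were called by limma, the smallest unadjusted p being 0.0295 for Afp. The part of this RNA in the lung rises was not tested as a cause. Among the control lung litters, litter 1, the highest in these markers, was the highest in Fabp1, Acaa1b and Ehhadh and the lowest in Cyp4a14. Without lung litter 1 at both doses the lung rises were close to these, at 2.80 for Cyp4a14, 1.90 for Ehhadh, 1.75 for Acaa1b and 2.59 for Fabp1, and 7 genes were called in lung. The added genes were Cyp3a11, Lum and Mylpf, a cytochrome, a matrix protein and a muscle protein. Lung arrays fitted alone called 2 genes, Cyp4a14 and Ehhadh. Cardiac muscle markers, also carried in lung RNA, ran from 6.57 to 9.07 in the control and from 6.23 to 8.59 in the exposed lung litters.

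Cyp3a11, a PXR target, is an example of a gene whose lung call turned on litter 1. It was at 8.44, 5.45, 5.07, 6.53 and 5.99 in control lung and at 11.30, 7.39, 8.18, 6.93 and 7.73 in exposed lung, with litter 1 first in each series. Litter 1 was the highest of its group at both doses, and the remaining 4 exposed litters were above the remaining 4 controls. Its lung change was 2.01 with all litters and was not called, and 1.80 without litter 1 (limma adjusted p = 0.00119). In liver Cyp3a11 ran from 11.2 to 11.9 without PFOS and from 12.3 to 12.7 with it, without overlap. That change of 1.06 was not called (limma adjusted p = 0.287). The spread in the test was pooled with lung, where the SDs were 1.32 and 1.74, against 0.35 and 0.19 in liver. Cyp2c29, another cytochrome, was at 8.84 and 10.30 in lung litter 1 and between 3.54 and 5.78 in the other lung litters.

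**Figure D4:**
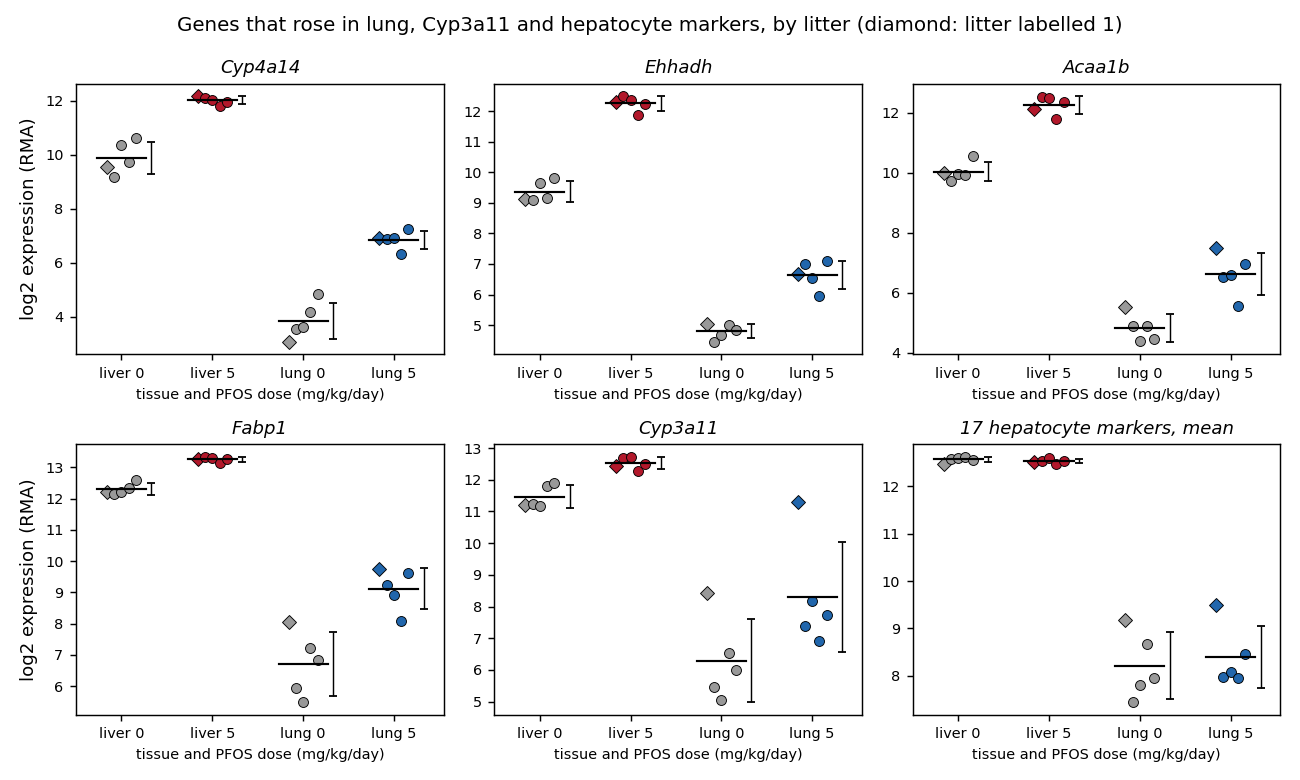
Log2 levels (vertical axes) in each litter of the 4 groups (horizontal axes, tissue and dose in mg/kg/day) for the 4 genes called in lung, Cyp3a11, and the mean of 17 hepatocyte markers, with group means as lines, SDs as bars and the litter labelled 1 as a diamond. Exposed lung litters lie above the controls for the 4 called genes, while the marker means overlap and litter 1 is highest at both doses.

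More genes had changes of the same sign in both tissues without a call in lung. Of the 12310 genes, 2486 had an unadjusted p under 0.05 by limma in liver and 478 in lung. The 137 genes with it in each tissue include some that reach it by chance. Of these 137, 74 were higher in both and 21 lower in both. Slc27a2, a fatty acid transporter, had changes of 0.75 in liver and 1.19 in lung. Cyp4a12a, another omega-hydroxylase, had changes of 1.34 and 0.94. The control lung litters of Cyp4a12a, from 2.87 to 3.85, lay under the 40th percentile of the lung arrays, 4.16 to 4.21. Its lung change is thus measured from under the filter, which it passed in lung only on exposed arrays. Angptl4, a secreted inhibitor of lipoprotein lipase, had changes of 0.60 and 0.57, a difference of 0.02 (SE 0.20). The genes that rose in liver had a median lung change of 0.04, with 63.7% of 617 above 0, against 52.0% of all genes expressed in both tissues. The share above 0 was 82.7% of the 75 risen genes whose control level was at least 2 lower in lung than in liver, against 63.4% of all 626 such genes. It was 56.5% of the 216 risen genes whose control level was at least as high in lung, against 47.9%. The 300 genes that fell in liver had a median lung change of 0.00. The changes of the tissues correlated across genes, which share arrays and are not replicates, with r = 0.23 over 12310 genes.

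A further 42 of the 137 genes had changes of opposite sign, and some of them can be due to chance. Of the 42, 24 were called for the difference, against 2.06% of all genes expressed in both tissues. Opposite signs enlarge a difference, which raised that share by the choice of genes. Fst, follistatin, an inhibitor of activin, was at 6.02, 6.46, 6.62, 6.43 and 6.15 in control liver and at 5.92, 5.80, 5.31, 5.27 and 5.79 in exposed liver. In lung Fst was at 4.13, 4.16, 4.01, 4.17 and 4.11 without PFOS and at 3.98, 4.54, 4.54, 4.74 and 4.77 with it. The 40th percentile of the lung arrays lay at 4.16 to 4.21, so Fst passed the filter in lung mostly on exposed arrays. Its lung change and its difference are measured from a level near or under that filter. The liver groups were separate, and 4 of 5 exposed lung litters lay above the controls while litter 1 lay below. The changes were -0.72 and 0.40, a difference of -1.12 (SE 0.21, limma adjusted p = 0.00227). Lung changes of these genes were not called after adjustment.

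Gsta4, a glutathione transferase for products of lipid peroxidation, was similarly bright in both tissues. It was at 8.28, 8.53, 7.99, 8.26 and 8.23 in control liver and at 7.59, 7.51, 7.80, 7.79 and 7.82 in exposed liver, and it ran in lung from 8.41 to 8.60 and then from 8.67 to 8.94. Neither tissue's groups overlapped, in opposite directions, with changes of -0.55 and 0.28 and a difference of -0.83 (limma adjusted p = 2.14e-04). Pcolce2, a collagen-processing enhancer, ran the other way, with 0.64 in liver and -0.38 in lung, a difference of 1.01 (limma adjusted p = 0.00170). Its exposed lung litters, from 6.69 to 7.50, overlapped the controls, from 7.34 to 7.80. Il6ra, the interleukin receptor subunit, had changes of -0.54 and 0.36. Bche, a cholinesterase of plasma, had changes of -0.33 and 0.57 and was called for the difference (-0.90) but in neither tissue; 2 other probe sets gave -0.37 and -0.42.

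Among genes with the lower liver response, 51 of 60 were called as falls in liver, against 2.44% of all genes expressed in both tissues. The liver change is part of the difference, which raised that share by the choice of genes. None of the 60 was called in lung, where 4 of all 12310 genes were called. Cyp2f2, a cytochrome of club cells, was at 9.73, 9.72, 9.71, 9.21 and 9.49 in control liver and at 9.13, 8.95, 8.92, 8.15 and 8.74 in exposed liver. In lung Cyp2f2 ran from 10.07 to 10.16 and then from 10.05 to 10.61. The liver groups were separate, the lung groups overlapped, and the difference was -1.07 (SE 0.22, limma adjusted p = 0.00543). Hsd11b1, which regenerates active glucocorticoid, was at 10.83 to 11.09 in control liver and 10.02 to 10.52 in exposed liver. All 10 lung litters lay at 10.48 to 10.91, and the difference was -0.72 (limma adjusted p = 0.00344). Cyp2f2 and Hsd11b1 each kept the call in 19 of the 20 settings beside leaving out 1 litter.

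Col4a5, a basement membrane collagen chain, was at 4.34 to 5.38 in control liver and 3.56 to 4.42 in exposed liver, dim values that overlapped, and at 9.19 to 9.52 in lung. Its difference was -0.998, against -0.32 by a second probe set. Fhad1, at 5.38 to 6.14 in control liver and 3.71 to 4.75 in exposed liver, had the lowest difference among the called genes expressed in both tissues, -1.48 (limma adjusted p = 1.50e-04). Enho, which encodes the secreted peptide adropin, differed by -1.10, and its other probe sets gave -1.42, -0.32 and -0.24. Oxct1, which lets tissues burn ketone bodies, fell by 0.52 in liver, a difference of -0.43. Cyp39a1, an oxysterol hydroxylase of bile acid synthesis, was the 1 called gene of 14 on its list, where 2.06% of all genes were called. Its difference was -0.87 (limma adjusted p = 0.0251). It lost the call, at the same size, without the controls high in Cym, and in 6 of the 20 fits that left out 1 litter. Among those 6 the adjusted p reached 0.0569, without lung control litter 1.

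**Figure D5:**
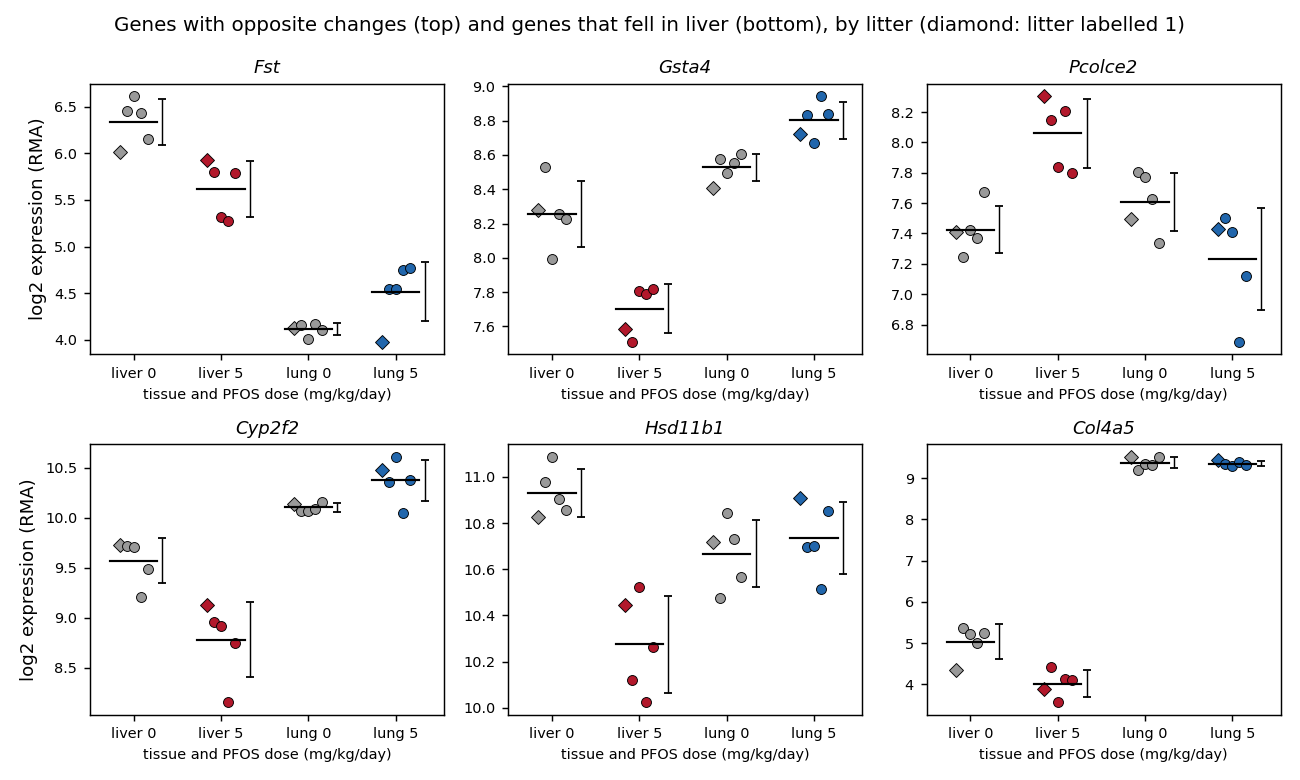
Log2 levels (vertical axes) in each litter of the 4 groups (horizontal axes, tissue and dose in mg/kg/day) for 3 genes with opposite changes (top) and 3 that fell in liver (bottom), with group means as lines, SDs as bars and the litter labelled 1 as a diamond. Gsta4 falls in liver and is higher in exposed lung without overlap, while Col4a5 and Hsd11b1 overlap between the lung groups.

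Several programmes showed no called difference at this dose. Of 44 complement, coagulation and plasma protein genes, 33 cell cycle genes, 25 erythroid genes, 37 respiratory chain genes and 15 surfactant genes, 0 were called for the difference by limma. With 2.06% of all genes called, lists of 15 to 44 genes are too short for 0 to be read as a result. In liver 2 plasma protein genes rose, and 3 erythroid genes and 1 surfactant gene fell. Of all genes expressed in both tissues, 5.01% rose and 2.44% fell there. Those 3 counts were 0, 1 and 0 without the controls high in Cym, and 1, 1 and 2 without the litters labelled 1 in both tissues. Sftpc, a surfactant protein, was at 13.58 and 13.59 in control and exposed lung, Sftpb at 11.91 and 11.70 (change -0.21, -0.49 to 0.07), and Scgb1a1, the club cell secretory protein, at 12.84 and 12.85. The cell cycle list had a median change of -0.25 in liver and -0.06 in lung, and the erythroid list of -0.28 and -0.03.

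Genes above the detection filter in only 1 tissue were counted apart. Of 959 such genes in liver 30 were called (3.13%), among them the carboxylesterases Ces1f (2.78) and Ces1e (2.05), similar paralogs, the chemokine Cxcl10 (1.97) and the amino acid transporter Slc7a9 (1.74). Fgf21, a liver hormone of fasting, rose by 0.99 in liver, and its difference of 0.91 had an adjusted p of 0.0543. Of 587 such genes in lung 1 was called (0.17%), Wif1, an inhibitor of Wnt signalling. Its difference of -1.52 (adjusted p = 0.0318) came from liver, where it went from 4.57 to 2.98, against 5.85 and 5.77 in lung. Wif1 lost the call in 10 of the 20 fits that left out 1 litter, with an adjusted p of up to 0.0704, reached without lung control litter 5.

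Values at the higher dose are set beside those at 5 mg/kg/day for 6 genes. The values at 10 mg/kg/day share the control litters and are given side by side only. The difference of Acot1 was 2.60 at 5 and 2.75 at 10 mg/kg/day, that of Acot2 2.50 and 3.11, that of Plin2 0.84 and 1.14, and that of Cyp51 0.79 and 0.61. Fhad1 stood at -1.48 and -1.65, and Cyp39a1 at -0.87 and -1.57. The step between doses, which uses no control litters, was called for 0 of 13856 genes by limma (0%), with 622 at an unadjusted p under 0.05. For Ehhadh and Cyp4a14 the lung changes were 1.85 and 3.01 at 5 mg/kg/day and 2.66 and 3.60 at 10 mg/kg/day.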

How the data were processed

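The authors deposited log2 summaries of each probe set of an Affymetrix mouse genome array, made with RMA per the submitters' processing notes. RMA corrects background, normalizes between arrays and summarises probes, and compresses changes of dim probe sets. The version of RMA and the arrays it was run on jointly are not given in the sources. Array means ran from 5.08 to 5.10. Precision is limited by the 5 litters per group, and p-values measure the spread between litters, pooled per gene over the groups of both tissues.

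Of 45101 probe sets, 34945 had 1 gene symbol, 932 several, 9160 none, and 64 were controls. Each of 18193 genes was taken from its single-symbol probe set with the highest mean. A gene was tested if that probe set exceeded its array's 40th percentile on at least 5 of the 15 arrays of a tissue, and counted as expressed in both tissues if it did so in each. All 30 arrays were fitted with limma 3.58.1 (R 4.3.3), with 1 mean per tissue and dose and empirical Bayes variances. Two-sided p-values were corrected over 13856 genes (Benjamini-Hochberg) and called under 0.05. The 10 mg/kg/day arrays added residual degrees of freedom and entered the detection filter. The fit was tested on simulated data.

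Genes were named by rule: the largest differences in each direction, up to 4 called members of each gene list, genes moving in both tissues, and known PFOS targets. The text uses a subset picked after values were seen. The members and lists were chosen with earlier results of these data known. Numbers shared by liver and lung arrays were not taken as pairs: their deviations from the group means correlated with r from 0.00146 to 0.354, and 12 of 15 pairs exceeded 0.1. Alternatives were filters, normalizations, array weights, other fits and probe set rules, a replicate block, Xist as a covariate, and leaving out litters. Leaving out lung litter 1, and the litters labelled 1 in both tissues, was added after the data were seen, as were the list counts without litters that stood apart. Promoters of 250 bases came from RefSeq (GRCm38.p6).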

Additional observations from a re-analysis of the deposited data

Results flagged for a closer look

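For 70 named genes the change at 5 mg/kg/day differed between liver and lung by limma's test of the difference. Genes whose liver response ran at least 1 higher were Ces1f 2.78, Acot1 2.60, Acot2 2.50, Aldh1a7 2.23, Lgals2 2.22, Ces1e 2.05, Cxcl10 1.97, Acot3 1.94, Acot4 1.90, Slc7a9 1.74, Aqp3 1.72, G0s2 1.52, Lepr 1.48, Retsat 1.45, Abhd6 1.44, Pltp 1.41, Ten1 1.37, Rnf186 1.34, Pdk4 1.32, Vnn1 1.26, Me1 1.25, Hilpda 1.21, Abcd3 1.17, Ephx1 1.03, Acacb 1.02, Eci1 1.02 and Pcolce2 1.01. The smaller positive differences were Gadd45b 0.99, Crot 0.99, Pex11a 0.99, Aldh3a2 0.98, Ces1d 0.97, Cpt2 0.95, Hsd17b7 0.92, Acss2 0.91, Vldlr 0.90, Aacs 0.88, Acsl4 0.85, Plin2 0.84, Gpam 0.81, Cyp51 0.79, Pxmp4 0.78, Slc25a20 0.77, Lss 0.77, Pmvk 0.76, Decr1 0.74, Etfdh 0.72, Fitm2 0.61, Acsl5 0.53, Lpin2 0.48, Pex19 0.47, Alas1 0.39 and Psmd4 0.33. The negative differences were Wif1 -1.52, Fhad1 -1.48, Fst -1.12, Enho -1.10, Cyp2f2 -1.07, Npb -1.03, Bcas1 -1.01, Col4a5 -0.998, Il6ra -0.90, Bche -0.90, Cyp39a1 -0.87, Gsta4 -0.83, Igfbp3 -0.81, Gsto1 -0.78, Ak7 -0.75, Hsd11b1 -0.72 and Oxct1 -0.43. Ces1f, Ces1e, Cxcl10, Acot4 and Slc7a9 passed the detection filter in liver only, and Wif1 in lung only. Of the 70 genes, 42 had another single-symbol probe set, 69 such probe sets in all. The difference had the same sign as the one used in 64 of the 69, and 18 were much smaller or of the other sign.

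In 26 of 376 groups of 5 litters, 1 litter lay far from the other 4, where chance flags about 1 in 20 groups. The litter labelled 1 was the one apart in 10 of the 26. In lung at 5 mg/kg/day it was highest in Cyp3a11 (11.30), Ces1f (5.53) and Cxcl10 (3.32) and lowest in Lss (5.52). In control lung it was highest in Cyp51 (6.28) and lowest in Pex11a (6.99) and Alas1 (8.10). In control liver it was lowest in Enho (7.69), and in exposed liver it was lowest in Lgals2 (6.58) and highest in Sftpc (6.77). Litter 4 at 5 mg/kg/day was lowest in liver for Acsl5 (11.23) and Slc27a2 (11.83) and highest for Mme (3.71), and in lung it was lowest for Acsl5 (9.31), Gpam (9.79) and Scgb1a1 (12.70). The other exposed litters apart were liver litter 3 in Fhad1 (3.71, lowest) and lung litter 5 in Fgf21 (3.98, highest).

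Among the liver controls, litter 3 was lowest in Aqp3 (4.98), litter 4 lowest in Lss (8.97), litter 5 highest in Cyp51 (8.86) and lowest in Gsto1 (9.58), and litter 2 highest in Igfbp3 (7.92). Among the lung controls, litter 3 was highest in Vnn1 (8.73), and litter 5 was highest in Abcd3 (9.66) and lowest in Sftpa1 (11.30).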

How the results depend on the processing

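Of 236 counts recomputed under other settings, 227 stayed within 1.5 times the reported count. Without the 3 liver control litters high in Cym, 175 of all genes and 157 of those expressed in both tissues were called for the difference, and 511 changed in liver, a fit with 2 liver controls. Without the litters labelled 1 in both tissues the first 2 counts were 170 and 144. Testing every probe set called 1577 in liver and 7 in lung, separate fits per tissue called 2 in lung, and leaving out lung litter 1 at both doses called 7. Leaving out 1 litter at a time gave 226 to 302 genes for the difference, 198 to 271 of them expressed in both tissues, 786 to 1015 in liver, 4 to 6 in lung, 459 to 555 for the difference at 10 mg/kg/day and 0 for the step.

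With the replicate number as a random block the difference was called in 356 genes, and as a fixed block (liver minus lung per number) in 257. The numbers were not taken as a pairing: 13 of 15 liver arrays correlated best with the lung array of their own number, a hint from the data and not the design.

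Of 70 called genes named here, 63 were called in each of the 20 fits without 1 litter, and 51 under each of the other 20 settings. Without the 3 liver control litters high in Cym alone, 16 of the 70 lost the call. Genes that lost it under at least 1 of the other 20 settings were Acacb, Acss2, Ak7, Alas1, Bche, Col4a5, Crot, Cyp2f2 and Cyp39a1. Gsto1, Hsd11b1, Igfbp3, Il6ra, Lpin2, Npb, Pex19, Psmd4, Vldlr and Wif1 did so too. Acss2 was called in 9 of the 20 fits without 1 litter, Lpin2 in 4, Psmd4 in 18, Cyp39a1 in 14, Igfbp3 in 12, Gsto1 in 7 and Wif1 in 10. Among those fits limma's highest adjusted p was 0.0761 for Acss2 without exposed liver litter 1. Without exposed liver litter 2 it was 0.102 for Lpin2 and 0.0510 for Psmd4. It was 0.0749 for Igfbp3 without control liver litter 2 and 0.0763 for Gsto1 without exposed lung litter 3. Differences near 0 changed sign and none of them was called: Angptl4 (-0.012 with quantile normalization, -0.014 with array weights, -0.090 to 0.12 without 1 litter), H2-D1 (0.090) and Cpt1a (0.015) with probe sets averaged, and Rxra (0.025) without the litters high in Cym. Without those litters the uncalled difference of Cym itself, -2.42, turned to 0.28. With the controls deciding which genes both tissues express, 242 were called. The causes were not tested. Dim probe sets and 5 litters per group limit what could be called.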
